A study of Mus musculus with 2 samples.

Results

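Peaks of histone H3 lysine 27 acetylation (H3K27ac) were described at 4 loci named for sarcomere genes, Tnnt2, Actc1, Actn2 and Ttn, in mouse hearts at embryonic stage E10.5. The members are all deposited peaks whose midpoint lay in a fixed mm9 window: chromosome 1 from 137680001 to 137800000 for Tnnt2, chromosome 2 from 113820001 to 113930000 for Actc1, chromosome 13 from 12310001 to 12480000 for Actn2, and chromosome 2 from 76500001 to 76870000 for Ttn. These windows held 119 of the 154664 peaks of the series, 54 of 87572 in the atrioventricular canal (AVC) list and 65 of 67092 in the chamber list.

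The AVC library came from sorted EGFP-positive cells and the chamber library from sorted Katushka-positive cells. The animals of both had the FVB/N background and the genotype label Katushka+ EGFP+. Both groups thus carry both reporters; the promoters that drive the reporters are not named in the sources used here. EGFP and Katushka are fluorescent proteins by which the cells were separated. Each tissue was represented by 1 library, so no difference between the tissues has a replicate check or a test, and intervals cover counting error only. The lists name no genes, and no annotation or sequence of the mm9 build was used here. The windows are therefore taken as given, no peak is assigned to a promoter, exon or intron, and the tissues were not checked against marker genes.

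The sarcomere is the contractile unit of heart and skeletal muscle. Its thin filaments are polymers of actin, regulated by tropomyosin and the troponin complex, and are anchored at the Z-disc by alpha-actinin, while titin spans from the Z-disc to the middle of the sarcomere as a molecular spring. H3K27ac marks active promoters and enhancers, and genes with high expression in a cell type often lie in clusters of such peaks. Cells of the atrioventricular canal are also muscle, of a slowly conducting kind, together with cushion cells in the tissue as a whole. In the gene order of the GRCm38 assembly, Tnnt2 lies between Lad1 and Pkp1, with the slow skeletal troponin I gene Tnni1 beyond Lad1. Actc1 lies between Gjd2 and Aqr, Actn2 between Mtr and Heatr1, and Ttn between Plekha3 and Ccdc141. A window may contain peaks of such neighbours.

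The starts of these genes are shown for orientation, as the 250 bases before the annotated start in RefSeq, GRCm38.p6, written 5′ to 3′ on the strand of the gene (plus for Tnnt2, minus for the others). Of the members, 4 matched the RefSeq promoter table by symbol, with 5 entries, 2 of them for Tnnt2, whose first is shown. Capitals mark matches to searched motifs, which were not placed on the peaks because the builds differ.
Tnnt2: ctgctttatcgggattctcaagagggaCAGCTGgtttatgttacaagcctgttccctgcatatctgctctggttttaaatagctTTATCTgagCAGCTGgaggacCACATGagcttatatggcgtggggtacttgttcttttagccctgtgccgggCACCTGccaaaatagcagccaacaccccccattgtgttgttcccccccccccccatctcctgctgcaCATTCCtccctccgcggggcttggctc
Actc1: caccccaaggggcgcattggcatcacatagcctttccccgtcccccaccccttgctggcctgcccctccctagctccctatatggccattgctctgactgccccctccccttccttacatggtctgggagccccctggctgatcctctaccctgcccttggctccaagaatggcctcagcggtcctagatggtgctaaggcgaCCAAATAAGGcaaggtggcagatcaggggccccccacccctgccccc
Actn2: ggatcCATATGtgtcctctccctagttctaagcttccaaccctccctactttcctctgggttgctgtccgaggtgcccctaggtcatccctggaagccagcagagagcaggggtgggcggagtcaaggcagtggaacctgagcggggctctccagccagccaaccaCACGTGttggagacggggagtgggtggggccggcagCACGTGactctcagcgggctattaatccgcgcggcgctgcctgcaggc
Ttn: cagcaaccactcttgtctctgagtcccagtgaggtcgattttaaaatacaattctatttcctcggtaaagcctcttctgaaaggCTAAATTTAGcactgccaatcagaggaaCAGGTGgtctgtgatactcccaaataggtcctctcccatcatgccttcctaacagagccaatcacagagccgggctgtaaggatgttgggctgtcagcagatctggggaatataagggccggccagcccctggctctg

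The motifs were searched on both strands over the whole 300 bases of each RefSeq entry, 50 of them after the start. They were the TATA box TATAAA, the GATA site AGATAA, the TEAD site CATTCC, the T-box site AGGTGT, the NKX2-5 site TNAAGTG, the E-box CANNTG, the CArG box bound by serum response factor, and the MEF2 site. Actc1 held a CArG box from 47 to 38 bases before the start, a motif present in 1.63% of 32851 RefSeq promoters. Ttn held a MEF2 site from 166 to 157 bases before the start, a motif in 3.19% of them, and the shown Tnnt2 entry held a GATA site from 166 to 161 bases before it, a motif in 11.2%. The TEAD site (14.7% of promoters) lay from 27 to 22 bases before the start of Tnnt2 and, in Ttn, after the start. TATAAA (13.6%) was found in Actc1 alone, after the annotated start. The shown Actn2 bases held 3 E-boxes, a motif that 72.3% of promoters contain. No entry of the 4 genes held AGGTGT (13.7% of promoters) or TNAAGTG (11.5%), which says only that these letters are not in these windows. The Tnnt2 entry not shown held E-boxes alone.

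The 4 windows were unlike in how densely they were marked. Actn2 held 24 AVC and 27 chamber peaks in 170 kb, or 14.1 and 15.9 per 100 kb. Tnnt2 held 19 and 13 in 120 kb (15.8 and 10.8 per 100 kb). Actc1, with 4 AVC and 14 chamber peaks in 110 kb, was densely marked in the chamber list alone, at 12.7 per 100 kb against 3.64 in the AVC list. Ttn held 7 and 11 peaks in 370 kb (1.89 and 2.97 per 100 kb), the lowest density in both lists. For comparison, the whole lists had 3.32 and 2.54 peaks per 100 kb.

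Among all genome tiles of equal length on the autosomes and the X chromosome, 1.88% held at least as many AVC peaks as the Actn2 window and 1.15% at least as many chamber peaks. The values for the Tnnt2 window were 1.6% in the AVC and 4.23% in the chamber list. At the Actc1 window 38.1% of the tiles had as many AVC peaks and 3.05% as many chamber peaks. The Ttn window was not densely marked on this scale, with 62.2% of tiles holding at least 7 AVC peaks and 32.4% holding at least 11 chamber peaks; the median tile of 370 kb had 10 and 6.

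Over the 4 windows the AVC contributed 45.4% of the peaks (54 of 119, exact 95% interval 36.2 to 54.8), beside 56.6% of all peaks of the series, without matching for peak density. This share ran from 22.2% at Actc1 (4 of 18, 6.41 to 47.6) over 38.9% at Ttn (7 of 18, 17.3 to 64.3) and 47.1% at Actn2 (24 of 51, 32.9 to 61.5) to 59.4% at Tnnt2 (19 of 32, 40.6 to 76.3). All 4 intervals overlap one another, and neighbouring peaks are not independent. Among the 1838 tiles of 110 kb with at least 18 peaks, the median AVC share was 50% and 0.653% of the tiles had a share as low as that of Actc1. For the other loci, tiles with at least as many peaks as the window were also used, so many are fuller than the window. Of these, 6.48% were at or below the share of Ttn (tile median 56%). For Actn2 41.5% were at or below its share (tile median 48.3%), and for Tnnt2 17.8% were at or above its share (tile median 49.0%). Tiles of exactly equal peak number were not compared. The order of the tissues was not stable at Tnnt2, where 8 AVC and 10 chamber peaks had a score of at least 3, nor at Ttn, where 7 and 6 peaks were at least 300 bp wide. At Actn2 23 peaks of each list were at least 300 bp wide. By bases covered, the AVC list led at Actn2 (13437 against 12010 bp) and at Ttn (3823 against 3649 bp). At a score of at least 5 the whole lists held 8716 AVC and 12137 chamber peaks. There, too, the AVC peaks were the fewer.

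**Figure D1:**
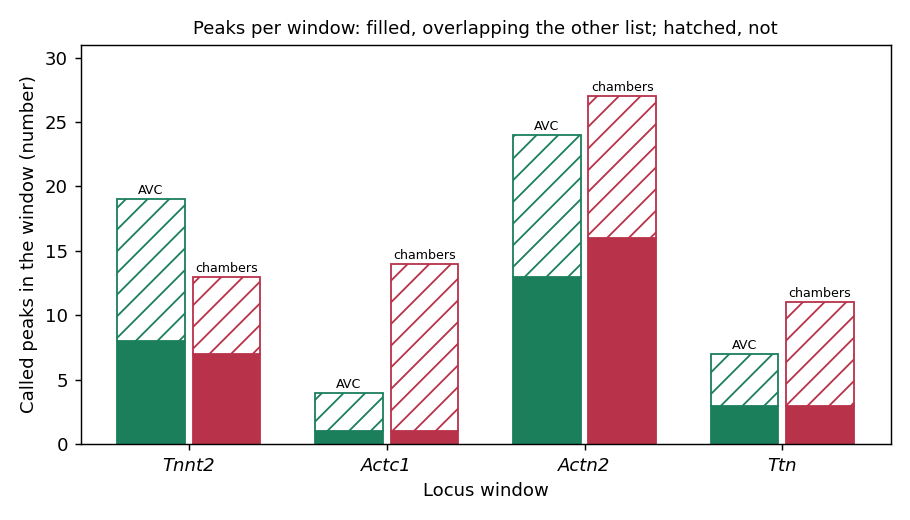
Number of called H3K27ac peaks (vertical axis) in each locus window for the AVC and chamber lists; the filled part of a bar counts peaks that overlap the other list by at least 1 bp and the hatched part those that do not. The AVC bar is the higher at Tnnt2 (19 against 13) and the chamber bar at Actc1 (14 against 4), Actn2 (27 against 24) and Ttn (11 against 7). By bases covered, which are not drawn, the AVC list leads at Actn2 and Ttn.

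Overlap between the lists also varied by locus, and the shares below were not matched for peak density. An AVC peak overlapped a chamber peak in 25 of 54 cases (46.3%, 32.6 to 60.4), beside 23.2% over the whole AVC list. In the chamber list 27 of 65 peaks (41.5%, 29.4 to 54.4) overlapped an AVC peak, beside 31.6% over that list. At Actn2 13 of 24 AVC and 16 of 27 chamber peaks overlapped, at Tnnt2 8 of 19 and 7 of 13, and at Ttn 3 of 7 and 3 of 11. At Actc1 a single locus was called in both lists, 1 of 4 AVC and 1 of 14 chamber peaks. The chamber share of Actc1, 7.14% (0.181 to 33.9), was the lowest of the windows, and its interval included the 31.6% of the whole list. The interval of Actn2 in the chamber list (38.8 to 77.6) lay above it. In the AVC list all intervals overlapped: 20.3 to 66.5 at Tnnt2, 0.631 to 80.6 at Actc1, 32.8 to 74.4 at Actn2 and 9.90 to 81.6 at Ttn.

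Nearly all strong peaks of the windows overlapped the other list. The caller gives each peak a score, Log(ER), set within each chromosome, and a whole-number signal value, which the headers do not name and which was not scaled between the lists. A score of at least 5 was reached by 9 of 54 AVC peaks, beside 9.95% of the whole list, and by 19 of 65 chamber peaks, beside 18.1%. All 9 such AVC peaks overlapped a chamber peak and 16 of the 19 chamber peaks overlapped an AVC peak; over the whole lists, 75.4% and 70.8% of peaks at this score did. Below a score of 5, 16 of 45 AVC and 11 of 46 chamber peaks overlapped, beside 17.4% and 23.0% of the whole lists. The 3 strong chamber peaks without overlap were 2 at Tnnt2 and 1 at Actn2.

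By signal value, 9 AVC peaks lay in the top 10% of their list (a value of 49 or more), beside 10.3% of all AVC peaks, the share that ties at this value give. In the chamber list 12 peaks lay in the top 10% (57 or more), beside 10.1%. Tnnt2 supplied 4 of these AVC and 6 of these chamber peaks, Actn2 3 and 5, Actc1 1 and 1, and Ttn 1 and 0. The median value of Tnnt2 chamber peaks, 51, was well above the median of the chamber list, 29, and that of Actn2 was 38. Actc1 and Ttn chamber peaks had medians of 28 and 30. In the AVC list the window medians were 32 at Tnnt2, 29 at Actc1, 30 at Actn2 and 32 at Ttn, near the list's 31.

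**Figure D2:**
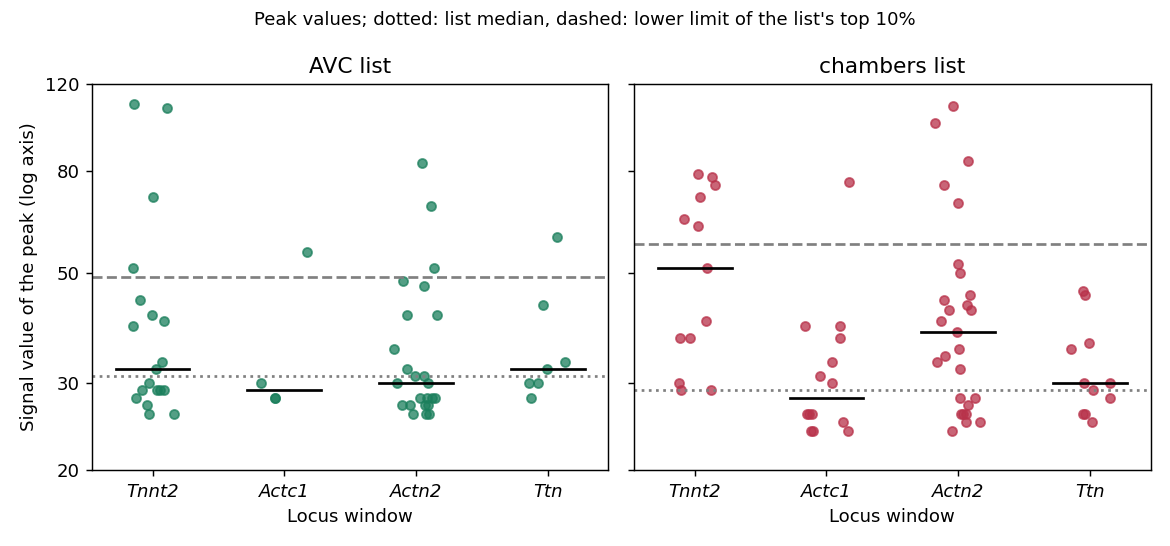
Signal value of every peak (log axis, unscaled between lists) by locus window, with AVC peaks in the left panel and chamber peaks in the right; black bars are window medians, the dotted line is the list median (31 and 29) and the dashed line the lower limit of the list's top 10% (49 and 57). The Tnnt2 chamber peaks have a median of 51, and no Ttn chamber peak reaches the dashed line.

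Tnnt2 encodes cardiac troponin T, which ties the troponin complex to tropomyosin on the thin filament. Its window had strong peaks in 2 zones in both lists, from 137685612 to 137697655 and from 137731006 to 137735960. In the second zone the AVC peak of highest value ran from 137731006 to 137732524, 1519 bp wide, with a value of 109 and a score of 14.02, and ranked 2317 in its list. The chamber list had there a peak of 520 bp from 137731132 to 137731651 with a value of 40 and a score of 4.42, wholly inside the AVC peak. The chamber peak of highest value lay 2.31 kb away by midpoint, from 137733525 to 137734618, with a width of 1094 bp, a value of 79 and a score of 11.25. It overlapped an AVC peak from 137733502 to 137734313 that had a value of 71 and a score of 8.37, the third of the window. That AVC peak also touched, by 18 bp, a chamber peak from 137732989 to 137733519 with a value of 51 and a score of 6.28. The highest peaks of the lists thus lay side by side, each over a lower peak of the other list.

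The chamber marking of Tnnt2 went on to the right of this point. From 137734812 to 137735399 lay the third chamber peak, with a value of 75 and a score of 10.54, which was the strongest chamber peak of the window without overlap; the nearest AVC peak ended 499 bp away. AVC peaks without overlap lay instead to the left and farther right. Between 137720191 and 137726880 there were 4 AVC peaks, with values of 26, 41, 28 and 40, and no chamber peak. Of these, the peak from 137722472 to 137723199 was the strongest AVC peak of the window without overlap (value 41, score 3.85). Beyond 137749574 the AVC list had another 4 peaks, with values from 26 to 33, and the chamber list none.

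In the left zone of the Tnnt2 window a narrow AVC peak of 86 bp, from 137689708 to 137689793, had a value of 107 and a score of 13.68. The chamber peak there was 138 bp wide, with a value of 64 and a score of 8.57. At 137696252 to 137696791 an AVC peak with a value of 51 and a score of 5.27 overlapped a chamber peak from 137695989 to 137696778 with a value of 71 and a score of 9.83. The second chamber peak of the window, from 137685612 to 137685962 with a value of 78 and a score of 11.07, covered AVC peaks with values of 39 and 44, and shared its first base with one of them. A chamber peak from 137691032 to 137691669, with a value of 62 and a score of 8.21, had no AVC peak within 1 kb. Since Lad1 and Tnni1 precede Tnnt2 on the chromosome, which gene these peaks belong to was not determined.

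Actc1 encodes cardiac alpha-actin, the main actin of the embryonic and adult heart's thin filaments. Its window turned on 1 peak that was the highest in both lists. The AVC peak ran from 113876865 to 113877425, with a value of 55 and a score of 5.65, and the chamber peak from 113876842 to 113877425, with a value of 76 and a score of 10.58. They ended on the same base and their midpoints were 11.5 bp apart. In their own lists they lay at the percentiles 92.7 and 94.3 of value.

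Around this shared peak the lists differed. Within 5 kb of it the chamber list had 7 peaks, with values of 24, 30, 33, 76, 39, 37 and 39 from left to right, and the AVC list had the peak itself alone. The chamber peaks of second rank, from 113877664 to 113877945 and from 113881156 to 113881606, both had a value of 39 and a score of 4.26, and were the strongest without overlap. Of the 13 chamber peaks without overlap, 5 lay within 1 kb of an AVC peak. The other AVC peaks of the window had values of 28, 30 and 28, close to the median of their list. Of these, the peak from 113831658 to 113832293 was the highest (value 30, score 2.39). The AVC list had no peak over 45.2 kb from 113877426 to 113922612, where the chamber list had 8.

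Actn2 encodes alpha-actinin 2, which crosslinks actin filaments at the Z-disc. Its window had the most peaks of the 4 in both lists, most densely between 12410001 and 12430000, where each 10 kb held 5 AVC and 7 chamber peaks. The highest peaks of the lists were 15.9 kb apart. In the chamber list they were the adjoining peaks from 12431275 to 12431890 (value 108, score 15.69) and from 12431910 to 12432569 (value 100, score 14.80), ranked 2027 and 2287 in the list. The former had no overlap, with an AVC peak 205 bp away, and was the strongest chamber peak without overlap in all 4 windows. The latter overlapped that AVC peak, from 12432095 to 12432492, which had a value of 27 and a score of 2.14. Within 5 kb of the highest chamber peak, the chamber list had 8 peaks with values from 38 to 108, and the AVC list 4 with values of 48, 28, 31 and 27.

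The highest AVC peak of Actn2 ran from 12415089 to 12416288, 1200 bp wide, with a value of 83 and a score of 10.06. It overlapped chamber peaks with values of 43 and 24. At 12411572 to 12412239 lay the third chamber peak (value 84, score 11.96), over an AVC peak with a value of 41 and a score of 3.80. The strongest AVC peak of the window without overlap, from 12410400 to 12411119 (value 47, score 4.58), was 453 bp from that chamber peak. Like Tnnt2 and Ttn, Actn2 thus had its highest values at different places in the lists.

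Among the other peaks of the Actn2 window, 2 pairs had scores of at least 5 in both lists. From 12460378 to 12461401 the second AVC peak, with a value of 68 and a score of 7.68, overlapped a chamber peak from 12460763 to 12461717 with a value of 75 and a score of 10.38. Near the right end of the window the third AVC peak, from 12477556 to 12478148 (value 51, score 5.14), overlapped a chamber peak from 12477896 to 12478190 (value 45, score 5.20). By contrast, at 12349238 to 12349850 a chamber peak with a value of 69 and a score of 9.33 covered an AVC peak with a value of 28 and a score of 2.25. Which of these peaks belong to Actn2 and which to neighbours such as Heatr1 was not determined.

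**Figure D3:**
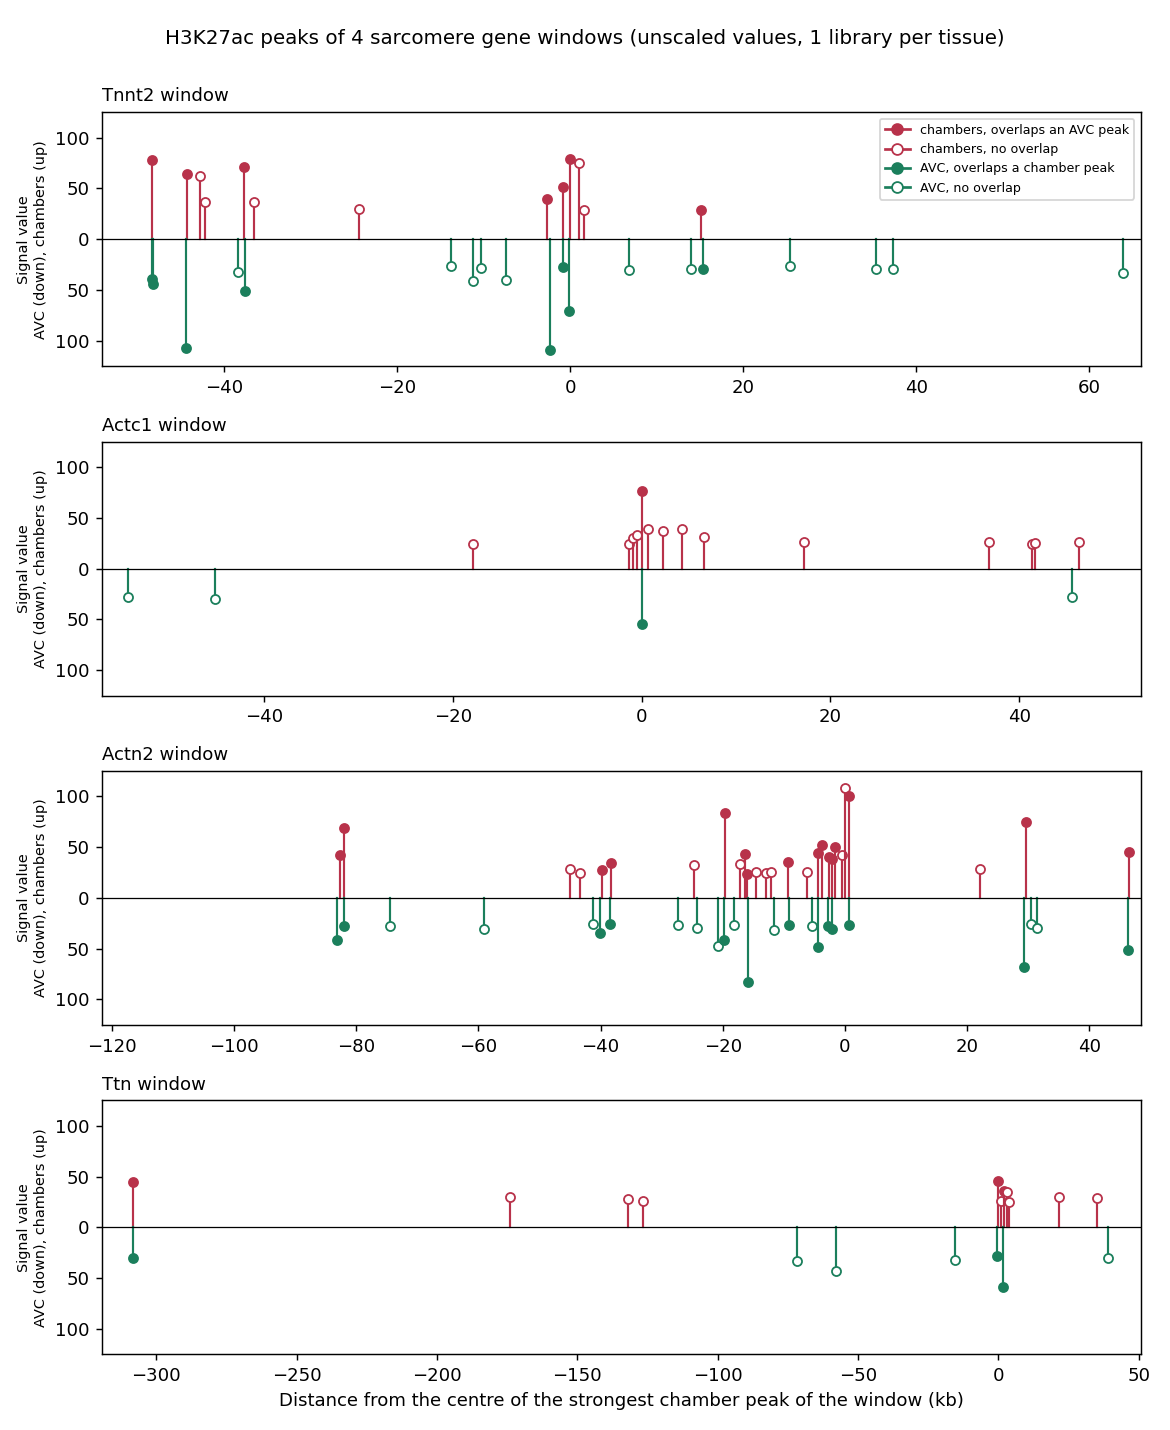
Position and signal value of every peak in the 4 windows, with chamber peaks drawn upwards and AVC peaks downwards (values unscaled between lists); the horizontal axis is the distance in kb from the centre of the highest chamber peak of each window, and filled circles mark peaks that overlap the other list. At Actc1 the highest peaks of both lists coincide, and at Tnnt2, Actn2 and Ttn they are 2.31, 15.9 and 1.83 kb apart. Most of the Ttn window is empty in both lists.

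Ttn encodes titin, the largest known protein of vertebrates. Its window had the lowest peak density of the 4, with fewer AVC but more chamber peaks than the median tile of its length, and none of the chamber peaks was in the top 10% of the list. Both lists had their highest values in a stretch from 76818597 to 76823045. The highest AVC peak ran from 76820773 to 76821429, with a value of 59 and a score of 6.22, and covered a chamber peak with a value of 36 and a score of 3.79. The highest chamber peak, from 76819087 to 76819453, had a value of 46 and a score of 5.39 and touched an AVC peak of value 28 by 47 bp. Their midpoints lay 1.83 kb apart. In this stretch the chamber list had 5 peaks, with values of 46, 26, 36, 35 and 25, and the AVC list 2, with values of 28 and 59.

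At the left end of the Ttn window a further peak was called in both lists. The chamber peak, from 76510764 to 76511200, had a value of 45 and a score of 5.22, and the AVC peak, from 76510780 to 76511330, a value of 30 and a score of 2.39. Between it and the stretch above, the peaks of the lists did not overlap. The AVC list had no peak over 235.8 kb, from 76511331 to 76747099, and the chamber list none over 133.8 kb, from 76511201 to 76645022. In between, the AVC list had 3 peaks, of which the highest, from 76761230 to 76761782 (value 43, score 3.99), lay 57305 bp from the nearest chamber peak. It was the second AVC peak of the window and its strongest without overlap. The next AVC peak by value, from 76747100 to 76747647, had a value of 33 and a score of 2.74. Of the chamber peaks without overlap, that from 76822215 to 76822621 was the highest (value 35, score 3.64), 786 bp from an AVC peak.

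The windows made 29 overlapping pairs, in which a peak can occur more than once. In 7 pairs both peaks had a score of at least 5, 4 of them at Tnnt2, 2 at Actn2, 1 at Actc1 and 0 at Ttn; over the 22319 overlapping pairs of the whole lists, 22.3% were of this kind. In 11 pairs the chamber peak alone reached this score, beside 19.7% of all pairs, and in 4 the AVC peak alone, beside 11.4%. Scores are set per list and chromosome, so equal scores need not mean equal acetylation. Both peaks were in the top 10% of their lists in 5 pairs, 3 at Tnnt2 and 1 each at Actc1 and Actn2, beside 17.8% of all pairs. In 22 of the 29 pairs at least 50% of the shorter peak was covered, beside 86.1% of all pairs.

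**Figure D4:**
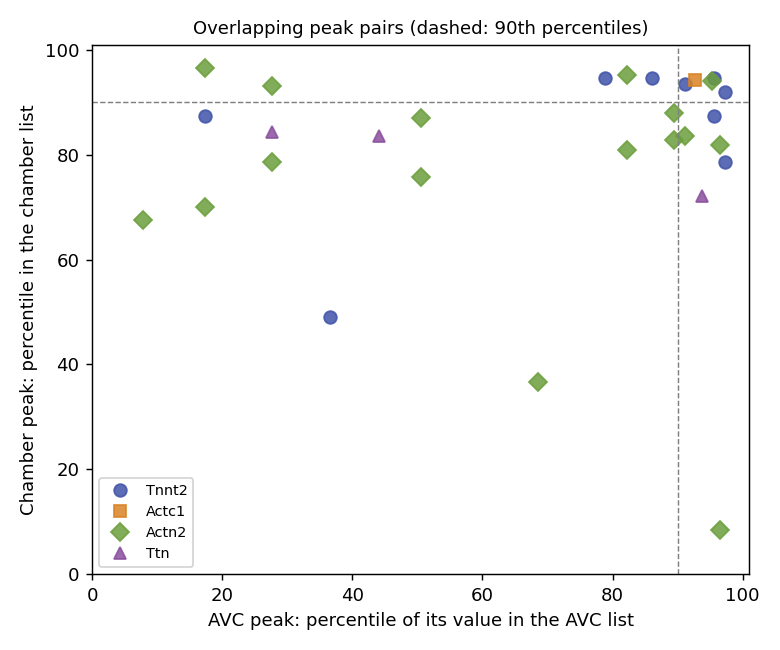
Percentile of the signal value in its own list for the AVC peak (horizontal) and the chamber peak (vertical) of each of the 29 overlapping pairs; symbols give the locus and dashed lines the 90th percentiles. The upper right corner holds 5 pairs, from Tnnt2, Actc1 and Actn2, and no Ttn pair.

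Peak widths differed between the lists at 3 of the 4 loci in the direction of the whole lists. AVC peaks were at least 500 bp wide in 27 of 54 cases, beside 41.8% of the AVC list, and chamber peaks in 16 of 65, beside 13.3% of the chamber list. The counts were 6 of 19 AVC and 7 of 13 chamber peaks at Tnnt2, 2 of 4 and 1 of 14 at Actc1, 13 of 24 and 8 of 27 at Actn2, and 6 of 7 and 0 of 11 at Ttn. Tnnt2 was the single window whose chamber peaks were wider by median (505 bp) than its AVC peaks (434 bp); the list medians were 325 and 472 bp. Because of this difference in width, 27979 bp were covered by the 54 AVC peaks and 27080 bp by the 65 chamber peaks. The AVC peaks covered more bases than the chamber peaks at Tnnt2 (8828 against 6670), Actn2 (13437 against 12010) and Ttn (3823 against 3649). At Actc1 they covered fewer (1891 against 4751). The whole lists covered 1.61% (AVC) and 0.893% (chambers) of the genome length spanned by the peaks.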

How the data were processed

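H3K27ac was profiled by ChIP-seq on a SOLiD instrument in 1 AVC and 1 chamber library of sorted cells, per the labels' protocols. Bowtie, SAMtools and the mm9 build are given, without versions, per the submitters' processing notes. Per the file headers, the authors ran OccuPeak 1.3 on each library with chromosomes as windows and kept peaks whose Log(ER) passed 2; reads were 50 long, and the fragments were modelled as 60.5 (AVC) and 68 (chambers). The deposited score is Log(ER), whose log base is not stated; the deposited signal value is a whole number not named in the headers and not scaled between lists. Depth, a control library and pooling are not given in the sources used here, so a peak missing from a list does not show absent acetylation. Values of the lists are set side by side above, but no change between the lists was computed from them. A higher value in a list does not show more acetylation.

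Starts were converted to 1-based positions. Peaks overlapped when they shared at least 1 bp. Interval searches were tested on trimmed peaks and on gaps between peaks of the same list, and against a direct count on 1 chromosome. Shares carry exact Clopper-Pearson 95% intervals. Peaks named are the 3 of highest value per window and list, overlapping pairs with both scores at 5 or more, and the strongest peak without overlap; a few others beside them were chosen after their values were seen. The members and lists were chosen with earlier results of these data known. Other sarcomere genes were not counted, since no mm9 annotation was used here. Alternatives were score, width, list length, window borders, overlap rule and ranking. Scripts ran in Python 3.11.15 with scipy 1.17.1, pandas 2.3.3, numpy 2.4.6 and, for plots, matplotlib 3.10.9.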

Additional observations from a re-analysis of the deposited data

How the results depend on the processing

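Peaks with a score of at least 3 numbered 8 (AVC) at Tnnt2, 1 (AVC) and 6 (chambers) at Actc1, 8 (AVC) at Actn2, and 2 (AVC) and 4 (chambers) at Ttn; the AVC share of peaks then fell to 44.4% at Tnnt2, where it had been above 50%, and to 30.8% at Actn2, and the AVC shares with overlap were 75% (6 of 8) at Tnnt2, 100% (1 of 1) at Actc1 and 75% (6 of 8) at Actn2. With peaks of at least 300 bp, 8 chamber peaks were left at Actc1 and 6 at Ttn, and the AVC share at Ttn was 53.8%, above 50%. These lists hold fewer peaks by construction. The AVC share of the whole lists at a score of at least 3 was not computed. At a score of at least 5 the whole lists held 8716 AVC and 12137 chamber peaks. A lower AVC share at a higher score was therefore not particular to these windows. With equal peak numbers, and with windows shortened by 10 kb at each end, 2 AVC peaks were left at Actc1. Counting neighbours within 1 kb, 42.9% of chamber peaks at Actc1, and 79.2% of AVC and 85.2% of chamber peaks at Actn2, were matched. Ranked by score within the chromosome, 5 AVC peaks of Actn2 were in the top 10%. At least 700 bp wide were 3 AVC and 2 chamber peaks at Tnnt2, 0 and 0 at Actc1, 4 and 1 at Actn2, and 0 AVC peaks at Ttn. The other 30 peak counts, 34 overlap shares, 17 AVC shares, 7 top 10% counts and 1 broad count (0 chamber peaks at Ttn) moved by at most 1.5 times (counts) or stayed inside their intervals (shares); the chamber peaks of Actn2 went from 27 to 18 at a score of at least 3, and its AVC share was 50% with peaks of at least 300 bp. No paired analysis was possible because there is 1 library per tissue. Depth is unknown, which limits what a missing peak shows.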
